A study of Mus musculus with 8 samples.

Results

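A set of 1226 binding sites of the transcription factor C/EBPα in mouse liver was called in all 8 chromatin immunoprecipitation (ChIP-seq) peak lists of a study, yet lay below the middle of every list in strength. They were chosen from the peak lists themselves. Peaks of the 8 lists that overlapped by 1 bp or more were joined into 113353 sites, the signal of each peak was ranked within its own list as a percentile (100 is the strongest peak), and sites called in all 8 lists with a percentile below 50 in each were kept. Sites called in all 8 lists are termed constitutive here. There were 24318 of them, so the weak ones made up 5.04% of the constitutive sites and 1.08% of all sites. A further 13581 constitutive sites (55.8%), termed strong, lay at percentile 50 or above in all 8 lists, and the other 9511 (39.1%), termed mixed, were below 50 in some lists and not in others. The presence and the strength of the weak constitutive sites are therefore properties they were chosen for and are given as a description. Their position in the genome, their neighbours and the exact place of the called peak were not used in the choice beyond the overlap that joins peaks.

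C/EBPα is a basic leucine zipper protein that is abundant in hepatocytes, binds DNA as a dimer and takes part in the control of genes of glucose, lipid and nitrogen metabolism. Trib1 encodes Tribbles-1, a pseudokinase known to bring C/EBPα to the ubiquitin ligase COP1 for degradation. In ChIP-seq of a tissue, the number of sequenced tags at a site reflects in how many cells and for how long a factor is bound there, how well the site crosslinks and how deeply the library was sequenced. A weak peak can thus be a site bound rarely in all cells or bound in few of them, and peak lists of whole tissue cannot tell these apart.

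The libraries came in 4 groups of 2, all labelled C57B/6 liver, from mice 8 to 10 weeks old, kept on chow and fasted for 4 hours. Groups Trib1_WT and Trib1_LSKO were mice with both Trib1 alleles floxed that received 1.5e11 gc (genome copies) of an adeno-associated virus (AAV), by intraperitoneal injection. The vector was empty (AAV_Null) in Trib1_WT and coded for Cre recombinase (AAV_Cre) in Trib1_LSKO. Groups AAV_Null and AAV_Cebpa were wild-type mice given 1e12 gc, of the empty vector and of one that carries Cebpa, respectively. The labels name no promoter for the vectors and do not say whether the replicates of a group were separate animals, so the spread between replicates may be technical. Transcripts and proteins were not part of these lists, so the targeting of Trib1 and the level of C/EBPα were not checked. The lists held 46348 to 80394 peaks, and AAV_Null replicate 1 was the shallowest library. Relative to it, AAV_Null replicate 2 had a depth of 1.17, AAV_Cebpa replicates 1 and 2 of 1.85 and 2.27, Trib1_WT replicates of 1.14 and 1.93, and Trib1_LSKO replicates of 1.18 and 1.28.

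Being weak and being called everywhere seldom went together. Of the 30747 sites called in a single list, 92.7% (95% Wilson interval 92.4% to 93.0%) were below percentile 50 in that list. The share of sites that were weak in every list calling them was 54.4% (53.3% to 55.5%) among the 8122 sites called in 4 lists, 31.5% (30.4% to 32.5%) among those called in 6 and 23.1% (22.1% to 24.1%) among those called in 7. It was 5.04% (4.77% to 5.32%) among those called in all 8. Part of this decline is built into the measure, since a site called in more lists has more values that must lie below 50. The intervals here and below cover counting of sites only, and sites are not independent replicates of a condition.

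**Figure D1:**
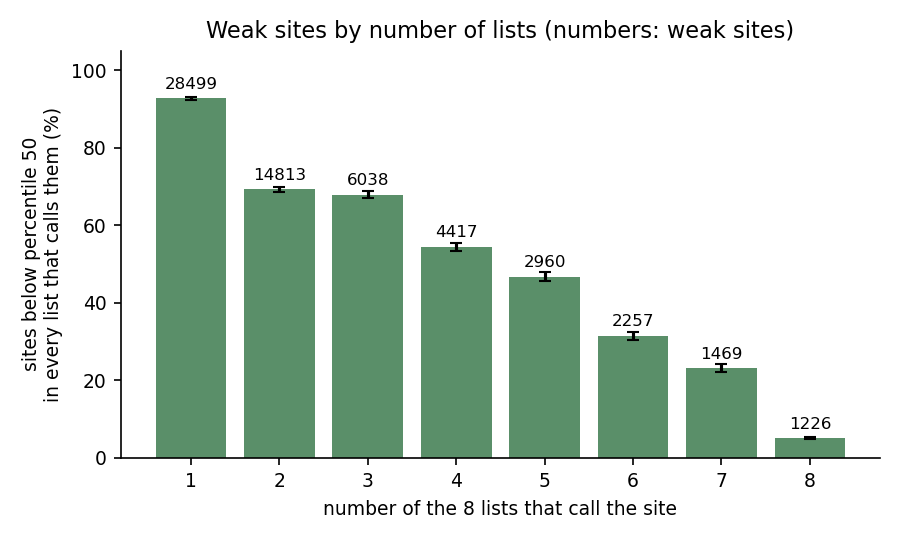
Share of sites (%, vertical axis) below percentile 50 in every list that called them, by the number of lists calling (horizontal axis), with 95% Wilson intervals. Numbers above the bars are the weak sites, and the share goes from 92.7% for 1 list to 5.04% for all 8.

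Within the lists, the weak constitutive sites lay well below the threshold but not at the bottom of the lists. Their median percentile was 30.3 and 29.8 for Trib1_WT replicates 1 and 2, 23.5 and 24.9 for Trib1_LSKO, 24.4 and 27.4 for AAV_Null, and 24.0 and 33.9 for AAV_Cebpa. Both Trib1_LSKO medians were thus below both Trib1_WT medians, while the AAV_Cebpa replicates lay on either side of the AAV_Null replicates. Sites below percentile 10 were 3.34% of the set in AAV_Cebpa replicate 2 and 19.5% in Trib1_LSKO replicate 1, the lowest and the highest share. The other constitutive sites had medians of 73.0 to 80.0. The sites held 1.52% of all peaks in AAV_Cebpa replicate 2, which has the longest list, and 2.65% in AAV_Null replicate 1, which has the shortest.

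**Figure D2:**
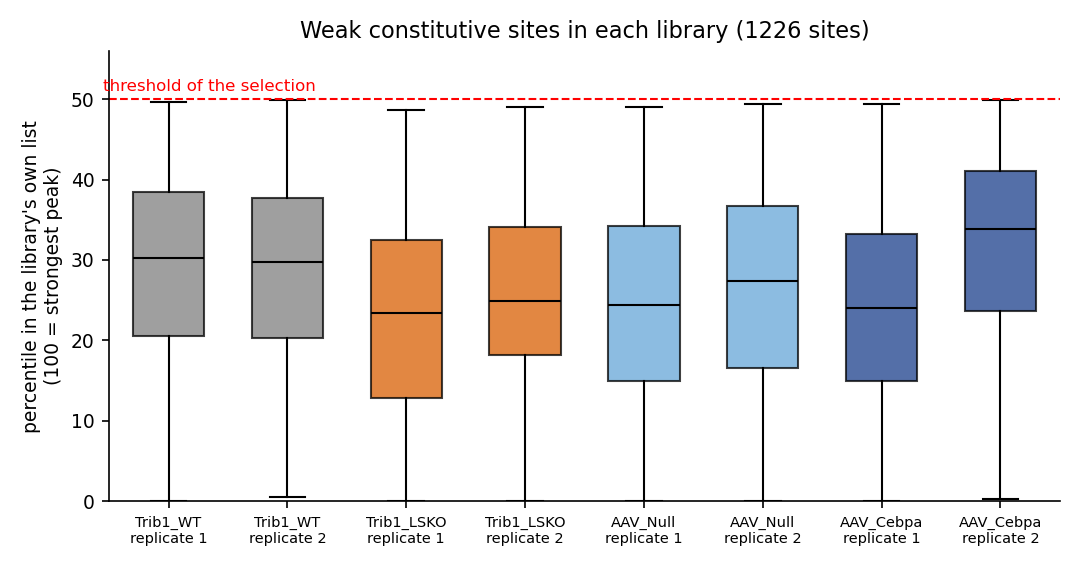
Percentile of the 1226 weak constitutive sites in each library's own list (vertical axis, 100 is the strongest peak). Boxes span the quartiles with the median as a line, whiskers span all sites, and the dashed line is the threshold of 50 used in the choice; the medians run from 23.5 in Trib1_LSKO replicate 1 to 33.9 in AAV_Cebpa replicate 2.

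The ranks rested on few tags. Signal values were whole multiples of 1 step per list, and a value divided by its step was read as a tag number. The median weak constitutive site had 16 tags in AAV_Null replicate 1 (95% exact Poisson interval 9.15 to 25.98), 19 in Trib1_WT replicate 1 (11.4 to 29.7) and 41 in AAV_Cebpa replicate 2 (29.4 to 55.6). In the other 5 libraries the median was 18 to 31 tags. The median peak of these lists had 29, 30 and 61 tags, and the weakest peak listed had 8, 7 and 12. In AAV_Null replicate 1 the interval around the median site reached from percentile 1.65 to 45.1 of the list. Summed over the 8 libraries, a weak constitutive site had a median of 193 tags (range 107 to 286), against 384 for mixed sites and 850 for strong sites. For 195 of the 1226 sites (15.9%) the upper counting limit stayed below the threshold in all 8 lists, and for 1048 (85.5%) it did so in at least 4.

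The threshold cut through a continuous range of strengths. By their highest percentile over the 8 lists, 497 sites lay between 45 and 50 and a further 671 constitutive sites lay just outside, between 50 and 55. Only 92 of the weak sites stayed below 30 in every list. A site just inside, on chromosome 3 from 32607421 to 32607709 (build mm9, as for all positions here), had percentiles of 46.8 and 49.9 for Trib1_WT replicates 1 and 2, 45.4 and 20.4 for Trib1_LSKO, 49.0 and 44.2 for AAV_Null, and 46.1 and 49.2 for AAV_Cebpa. A site just outside, on chromosome 3 from 85568904 to 85569166, had 30.3 and 35.6, then 50.2 and 43.6, then 29.5 and 49.4, and 42.5 and 42.7 in the same order, and was kept out by Trib1_LSKO replicate 1 alone. Of the 865 constitutive sites that were below 50 in 7 lists, 336 exceeded it only in AAV_Cebpa replicate 2, 153 only in AAV_Null replicate 2 and 22 only in AAV_Cebpa replicate 1. A further 1469 sites were weak and called in 7 lists. The missing list was AAV_Cebpa replicate 1 for 322 of them, AAV_Null replicate 1 for 279, Trib1_LSKO replicate 1 for 222 and AAV_Null replicate 2 for 221. It was AAV_Cebpa replicate 2 for 87 and Trib1_WT replicate 2 for 63. The 2 AAV_Cebpa libraries thus differed, in that the first most often lacked a call and the second most often had a rank too high, with lists of 59564 and 80394 peaks.

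The weakest sites by their highest percentile illustrate what a call in all lists meant at this depth. The site on chromosome 15 from 40699917 to 40700165 had percentiles of 3.3 and 10.4 for Trib1_WT, 12.8 and 18.2 for Trib1_LSKO, 3.5 and 11.7 for AAV_Null, and 0.041 and 0.26 for AAV_Cebpa. Its tag numbers in the same order were 10 and 18, 14 and 17, 10 and 14, and 11 and 13. In AAV_Cebpa replicate 1 its 11 tags equalled the weakest peak of the list, and its nearest constitutive neighbour was 364 kb away. The site on chromosome 1 from 180326535 to 180326792 had 7.3 and 7.1 for Trib1_WT, 9.5 and 10.5 for Trib1_LSKO, 7.5 and 16.6 for AAV_Null, and 19.1 and 17.7 for AAV_Cebpa. The third, on chromosome 13 from 45079580 to 45079823, ranged from 2.5 in AAV_Null replicate 2 to 20.4 in Trib1_LSKO replicate 2. The highest value among the 3 sites was 20.4.

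Ranks of the weak sites varied among the libraries over much of the range they were allowed. The median difference between a site's highest and lowest percentile was 30.3 (quartiles 24.4 and 36.2), against 41.7 for mixed sites, which have no such ceiling, and 15.4 for strong sites. The steadiest site, on chromosome 9 from 102893259 to 102893511, had 32.5 and 28.5 for Trib1_WT, 32.5 and 26.9 for Trib1_LSKO, 29.5 and 27.4 for AAV_Null, and 27.3 and 29.1 for AAV_Cebpa, a range of 5.6 percentiles. On chromosome 11, the site from 83667065 to 83667319 stayed between 37.5 and 45, and on chromosome 17 the site from 21816733 to 21817032 stayed between 32.3 and 40.7. The largest range was at a site on chromosome 11 from 20890751 to 20890985, with 14.7 and 29.8 for Trib1_WT, 0.58 and 2.3 for Trib1_LSKO, 34.2 and 49.4 for AAV_Null, and 9.1 and 25.9 for AAV_Cebpa. Its 2 Trib1_LSKO values were the lowest of the 8 and its 2 AAV_Null values the highest. The next widest, on chromosome 19 from 28266805 to 28267036, had 0.67 and 2.2 for Trib1_WT, 0.58 and 26.9 for Trib1_LSKO, 21.6 and 34.9 for AAV_Null, and 37.4 and 49.2 for AAV_Cebpa. There the Trib1_LSKO replicates differed from each other by more than the AAV_Cebpa replicates did, and both libraries of Trib1_WT were near the bottom of their lists.

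Replicates ranked the weak sites more alike than libraries of other groups did. Spearman's rho across the 1226 sites was 0.39 to 0.60 for the 4 replicate pairs, 0.078 to 0.32 for the 8 pairs of opposite groups within an experiment and 0.082 to 0.31 for the 16 pairs across experiments. Across the other 23092 constitutive sites, the replicate pairs had 0.92 to 0.95 and the pairs of opposite groups 0.55 to 0.87. These are correlations across sites, not samples. All points of a pair share their libraries and depth, and a rank limited to the range below 50 lowers a correlation by itself. The median absolute difference between the replicates at a weak constitutive site was 7.6 percentiles in Trib1_WT, 9.43 in Trib1_LSKO, 9.09 in AAV_Null and 9.27 in AAV_Cebpa. In the other constitutive sites it was 3.49 to 4.92.

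The first comparison asks how targeting Trib1 bears on these sites. In the lists as given, the library medians averaged 24.2 ± 1.0 for Trib1_LSKO, against 30.03 ± 0.38 for Trib1_WT (SD over 2 libraries each). The median difference per site was -4.79 percentiles (quartiles -12.1 and 2.82). The median difference was also negative in the other constitutive sites, at -2.95 in mixed and -1.74 in strong sites. By group mean, Trib1_LSKO was higher at 33.9% of the weak, 42.9% of the mixed and 31.7% of the strong sites. At 413 weak sites (33.7%) both Trib1_LSKO libraries lay below both Trib1_WT libraries, beside 36.5% of the 34866 sites called in these 4 lists. At 135 (11.0%) both lay above, beside 20.2%. Because the percentiles chose the sites and cap what a site can gain, nothing is read from these medians and shares. No direction is assigned to the set. With 2 against 2 libraries an exact two-sided permutation test cannot go below 0.333. The balance also moved with the ranking. Ranks taken among constitutive sites alone gave 182 higher and 345 lower, and lists reduced to equal length gave 176 higher and 210 lower among the 839 sites that then met the rule. Shares over all sites were not counted under these rankings.

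Single weak sites moved over most of the allowed range. On chromosome 13, the site from 58333490 to 58333760 had percentiles of 11.0 and 10.4 in Trib1_WT against 43.8 and 49.0 in Trib1_LSKO, and 11.5 and 11.7 in AAV_Null against 46.1 and 45.8 in AAV_Cebpa. On chromosome 16, the site from 49796446 to 49796709 had 7.3 and 15.1 against 48.6 and 45, and 7.5 and 18.9 against 47.2 and 46.5. The third, on chromosome 7 from 108175400 to 108175694, had 0.67 and 5.6 against 45.4 and 28.7, and 7.5 and 11.7 against 34.6 and 48.6. At these 3 sites the control libraries of the 2 experiments lay together at the low end and all treated libraries at the high end, without overlap. The largest difference in the other direction was on chromosome 7, 37868105 to 37868362, with 48.3 and 42.7 in Trib1_WT against 2.8 and 13.4 in Trib1_LSKO. That site had 31.9 and 42.8 in AAV_Null and 17.1 and 1.4 in AAV_Cebpa. On chromosome 17, the site from 32173189 to 32173449 had 34.6 and 40.7 in Trib1_WT against 2.8 and 0.64 in Trib1_LSKO, with overlapping values of 18.4 and 45.6 in AAV_Null and 36.0 and 41.0 in AAV_Cebpa. On chromosome 8, the site from 11633730 to 11633979 had 48.3 and 38.7 against 9.5 and 7.7, again with overlapping values of 24.4 and 44.2 in AAV_Null and 37.4 and 40.2 in AAV_Cebpa. These 3 sites were alike in Trib1_LSKO, where all 6 values were below 14, and only the first was low in AAV_Cebpa as well. The sites named here were chosen for their large differences. Over the whole set, 60 sites (4.89%) were higher without overlap in both Trib1_LSKO and AAV_Cebpa. At 14 (1.14%), Trib1_LSKO was higher and AAV_Cebpa lower. Trib1_LSKO was lower and AAV_Cebpa higher at 91 (7.42%), and both were lower at 87 (7.1%). Shares of these patterns over all sites were not counted, so these numbers are not read as results about the weak sites.

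The second comparison asks how extra C/EBPα bears on them, and here the direction depended on how strength was ranked. The mean of the library medians was 29.0 ± 7.0 in AAV_Cebpa and 25.9 ± 2.1 in AAV_Null (SD, n = 2 each), a difference within the spread of the replicates. The median difference per site was 2.93 percentiles (quartiles -6.19 and 11.5). Both AAV_Cebpa libraries lay above both AAV_Null libraries at 350 weak sites (28.5%), beside 39.1% of the 27702 sites called in these 4 lists, and below at 228 (18.6%), beside 27.8%. When ranks were taken among constitutive sites alone, 180 were higher and 457 lower. With lists of equal length, 126 were higher and 302 lower among the 839 sites that then met the rule. The majority thus changed sides. Shares over all sites were not counted under these rankings, so the change is not read as particular to the weak sites. The lists held 59564 and 80394 peaks for AAV_Cebpa, against 46348 and 49052 for AAV_Null. Whether list length bears on the change was not tested. Without AAV_Cebpa replicate 2 the numbers were 392 higher and 481 lower. They were 659 and 258 without AAV_Cebpa replicate 1, 500 and 409 without AAV_Null replicate 1, and 565 and 344 without AAV_Null replicate 2. For these counts too, shares over all sites were not counted. No direction is therefore assigned to the set in this comparison.

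The largest rises from AAV_Null to AAV_Cebpa started near the bottom of the AAV_Null lists. The rule fixes this, since every percentile lies below 50, and it also makes the largest falls start near the threshold. On chromosome 15, the site from 94363477 to 94363710 had 3.5 and 0.51 in AAV_Null against 44.9 and 44.3 in AAV_Cebpa, in tags 10 and 10 against 40 and 53. In the Trib1 experiment it had 7.3 and 36.7 for Trib1_WT and 40.4 and 35.8 for Trib1_LSKO, so that 1 control library there lay as high as the treated ones. On chromosome 19, the site from 57200735 to 57200959 had 0.86 and 0.51 against 38.7 and 42.7. In the other direction, the site on chromosome 7 from 87298388 to 87298655 had 44.2 and 41.3 in AAV_Null against 2.2 and 11.0 in AAV_Cebpa. The site on chromosome 7 from 137202511 to 137202773 had 45.9 and 49.4 against 7.4 and 21.5. The Trib1_WT values of these 2 sites, 38.4 and 23.1 and then 30.3 and 24.4, lay between the extremes of the second experiment.

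Called positions differed more between replicates at weak sites than at the other constitutive sites, in all 4 groups. Between replicates, the called midpoints lay a median of 15 bp apart in Trib1_WT, 17.5 bp in Trib1_LSKO, 20 bp in AAV_Null and 15 bp in AAV_Cebpa. In the other constitutive sites these medians were 10, 11, 12 and 10 bp. The mean over the 4 replicate pairs was 16.9 ± 2.4 bp for the weak sites and 10.8 ± 0.96 bp for the others (SD, n = 4 pairs), a difference of 6.13 ± 1.44 bp with the same sign in 4 of 4 pairs (exact two-sided sign-flip permutation p = 0.13, the smallest that 4 pairs can give). Against other constitutive sites that were themselves below percentile 50 in both replicates, the difference was 0.63 ± 0.48 bp and was above 0 in 3 of 4 pairs (exact permutation p = 0.25). Midpoints over 50 bp apart were found at 10.6% ± 3.3 of the weak sites, at 9.26% ± 2.91 of those others and at 1.93% ± 0.34 of the strong sites. Within pairs, the difference from those others was 1.31 ± 1.07 percentage points and was above 0 in 4 of 4 pairs (exact two-sided sign-flip permutation p = 0.13, again the smallest possible).

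On average, distances between opposite groups lay close to those between replicates. Medians of single pairs in the weak sites ran from 14 to 21 bp between opposite groups and from 15 to 20 bp between replicates. In the weak sites the median distance was 17.0 ± 2.4 bp over the 8 pairs of opposite groups within an experiment and 17.1 ± 1.8 bp over the 16 pairs across experiments, against 16.9 ± 2.4 bp over the replicate pairs. The 8 midpoints of a site spanned a median of 53 bp, against 29 bp in strong sites, and at 569 weak sites (46.4%) all 8 fell within 50 bp. At 42 (3.43%) the outermost midpoints were 200 bp or more apart, so that the outermost peaks did not overlap each other and were joined through a peak in between. The site on chromosome 6 from 120388298 to 120388707, with a spread of 210 bp, was one of them.

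**Figure D3:**
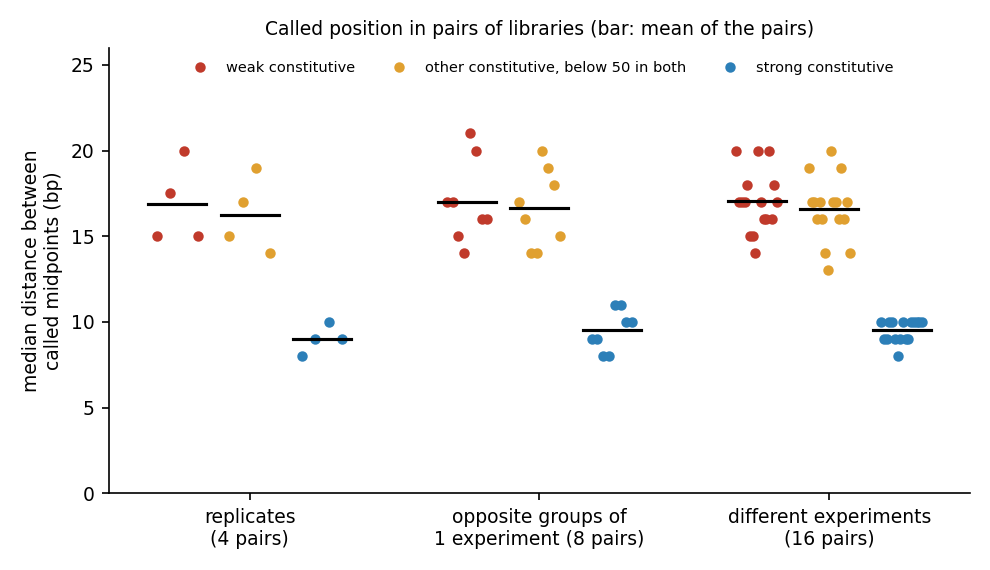
Median distance in bp (vertical axis) between the midpoints called in 2 libraries, for each of the 28 library pairs by kind of pair. Points are library pairs and bars their means; the weak constitutive sites (means 16.9, 17.0 and 17.1 bp) lie beside other constitutive sites below 50 in both libraries and above the strong sites.

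Weak constitutive sites stood more alone in the genome than strong ones. The nearest other constitutive site was a median of 23.5 kb away, against 14.0 kb for mixed sites and 7.96 kb for strong sites. Another constitutive site lay within 10 kb of 300 weak sites (24.5%, 95% Wilson interval 22.1% to 26.95%), against 40.8% (39.8% to 41.8%) of the mixed sites and 56.2% (55.4% to 57.1%) of the strong ones. The nearest site of any kind was 4.5 kb away, against 2.62 and 2.02 kb. Over all 113353 sites, 38.8% had another constitutive site within 10 kb and the median distance to any other site was 2.67 kb. At these short distances the weak constitutive sites were thus sparser in neighbours than the average site of the study. Within 100 kb the shares were alike. A constitutive neighbour lay that near for 87.3% (85.3% to 89.0%) of the weak sites and 86.8% of all sites.

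The sites most like them in strength were isolated to a similar degree. Of the 1469 weak sites called in 7 lists, 29.1% (26.8% to 31.4%) had a constitutive site within 10 kb, with a median distance of 21.0 kb. Over all constitutive sites, distance followed strength. By the mean percentile over the 8 lists, the median distance to the nearest constitutive neighbour was 29.4 kb for the 219 sites between 10 and 20, 25.7 kb between 20 and 30, 19.4 kb between 30 and 40, 13.1 kb between 50 and 60 and 7.49 kb between 90 and 100. No other constitutive site lay within 100 kb of 156 weak sites (12.7%, 11.0% to 14.7%), against 4.77% (4.43% to 5.14%) of the strong sites. This share was 9.27% (8.71% to 9.87%) in mixed sites and 12.4% (10.8% to 14.2%) in weak sites called in 7 lists. At this distance the weak constitutive sites were close to the average site of the study, as given above. Positions were not used in the choice, and no test of these shares was made, because neighbouring sites share their surroundings.

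**Figure D4:**
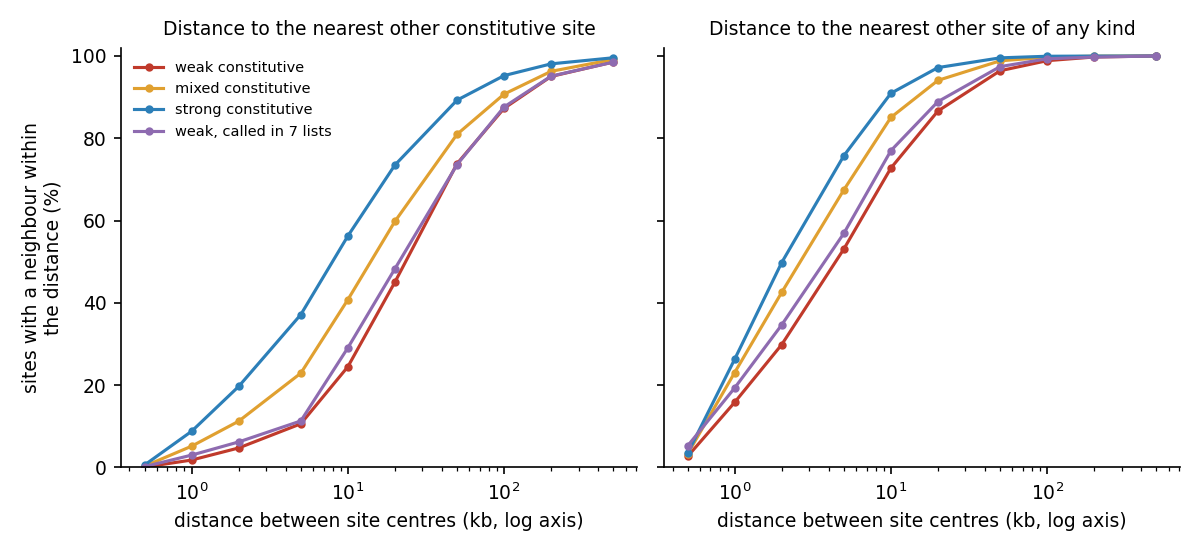
Share of sites (%, vertical axis) with a neighbour within a given distance in kb (log axis), for the nearest other constitutive site (left) and the nearest site of any kind (right), in 4 classes of sites. The curve of the weak constitutive sites lies lowest at 10 kb in both panels, with 24.5% on the left and 72.8% on the right.

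Few weak sites lay close to a strong one. A strong site lay within 1 kb of 0.33% of the weak constitutive sites and within 10 kb of 11.0% (9.38% to 12.9%), against 7.03% and 44.1% for strong sites themselves. These shares were 0.75% and 14.6% for weak sites called in 7 lists, 2.49% and 24.7% for mixed sites, and 3.37% and 25.4% for all sites. The nearest constitutive neighbour was itself weak for 101 weak constitutive sites (8.24%, 6.83% to 9.91%), where weak sites are 5.04% of all constitutive sites. The nearest constitutive neighbour was a weak constitutive site for 7.76% (6.5% to 9.24%) of the weak sites called in 7 lists, an interval that overlaps theirs, for 5.15% (4.73% to 5.61%) of the mixed sites and for 3.3% (3.01% to 3.61%) of the strong sites. Runs of weak sites were short: with gaps of at most 10 kb, 19 pairs and no longer run occurred, and 1188 sites stood by themselves. The longest of these pairs spanned chromosome 11 from 75572696 to 75583155, followed by chromosome 1 from 80327619 to 80337994 and chromosome 1 from 141189072 to 141199374. These 3 pairs covered 10.3 to 10.5 kb each.

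The shares of weak constitutive sites with a site nearby that appeared or disappeared in the experiments were compared with those of strong sites and of all sites, with no test. A site called in both AAV_Cebpa libraries and neither AAV_Null library lay within 10 kb of 24.96% (22.6% to 27.5%) of the weak sites of 38.3% (37.4% to 39.1%) of the strong ones and of 31.6% of all sites. Sites with the reverse pattern lay within 10 kb of 9.22% (7.72% to 11.0%) of the weak sites, 16.3% (15.7% to 16.9%) of the strong ones and 12.8% of all sites. For sites called only in both Trib1_LSKO libraries the shares in the same order were 4.73% (3.68% to 6.07%), 8.62% (8.16% to 9.11%) and 6.37%. For those called only in both Trib1_WT libraries they were 5.79% (4.62% to 7.24%), 6.91% (6.5% to 7.35%) and 6.68%, and here the intervals of weak and strong sites overlapped. Weak sites called in 7 lists had 23.7% (21.6% to 25.9%) near a site that appeared in AAV_Cebpa, an interval that overlaps that of the weak constitutive sites.

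The share of weak constitutive sites on chromosome X lay above that of the other constitutive sites. Chromosome X held 58 of them, 4.73% of the set (3.68% to 6.07%), against 1.93% (1.76% to 2.11%) of the other constitutive sites and 3.0% (2.91% to 3.1%) of all sites. Put the other way, 58 of its 503 constitutive sites were weak in all lists, 11.5% (9.03% to 14.6%). On the 19 autosomes that share ran from 4.1% on chromosome 3 to 6.35% on chromosome 17, and on each of them the share of the other constitutive sites lay inside the interval of the weak ones. Peaks of chromosome X were lower throughout the lists: their median percentile was 28.9 to 34.6 in the 8 libraries, against 50.2 to 50.9 on the other chromosomes. Its constitutive sites had medians of 53.0 to 65.5, against 71.1 to 78.7. The strength that chose the sites was thus lower on this chromosome as a whole. With lists of equal length, chromosome X held 3.22% of the sites that met the rule. Its shares of the other constitutive sites and of all sites were not counted in those lists, so this value has no matching comparison. The sex of the mice was not given in the labels used here.

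**Figure D5:**
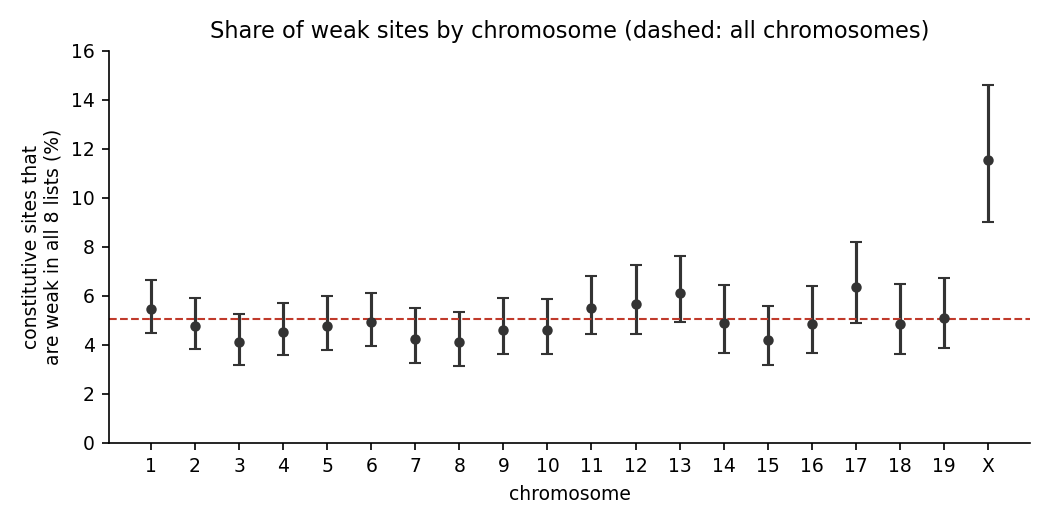
Share of constitutive sites that were weak in all 8 lists (%, vertical axis) by chromosome, with 95% Wilson intervals; the dashed line is the share over all chromosomes, 5.04%. Chromosome X stands at 11.5% and the autosomes between 4.1% and 6.35%.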

How the data were processed

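C/EBPα ChIP-seq peaks of 8 mouse liver libraries were analysed, 1 list per library. The tools named in the submitters' processing notes are Bowtie and HOMER, with build mm9. Versions, calling threshold, input and handling of duplicates: not given in the sources used here. The deposited signal is the authors' own value per peak, and it served for ranks and descriptions within a list, never for a differential test. Every peak was 200 bp wide. Joining at 1 bp overlap turned 446523 peaks into 113353 sites, and a site took its strongest peak of a list. Ties took the average rank. Signal values below 60 were whole multiples of 1 step per list within 0.051; the inverse of the step gave relative depth. Poisson intervals cover counting error only. Distances are between site centres. Python 3.11.15, pandas 2.3.3 and scipy 1.17.1 were used, and joining, ranking and distances were tested on simulated lists.

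The sites and lists were chosen with earlier results of these data known. The named sites are, at 3 per criterion, those with the lowest highest percentile, the smallest and largest range, the largest differences of group means without overlap, those next to the threshold, and the longest runs; chromosome 18 was left out. Some of them are described here. Sequence and genes of build mm9 were not used here, so planned motif, GC and gene results were not made. The alternatives tried were other thresholds, tie rules, overlaps, list lengths and left-out libraries.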

Additional observations from a re-analysis of the deposited data

How the results depend on the processing

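With thresholds of 40 and 60, 400 and 2687 sites met the rule. The other rankings and joins gave 839 (lists of equal length) to 1275 (ties at the lowest rank), and leaving out a library gave 1358 to 1649. With a threshold of 60, 368 sites were higher and 930 lower in Trib1_LSKO, and 793 higher and 555 lower in AAV_Cebpa. Ranks among constitutive sites gave 180 higher and 457 lower in AAV_Cebpa; lists of equal length gave 126 higher there and 210 lower in Trib1_LSKO. With 1 library left out, groups that did not overlap numbered 263 to 289 higher and 574 to 648 lower in Trib1_LSKO, and 392 to 659 higher and 258 to 481 lower in AAV_Cebpa; they are larger because 3 libraries are compared. Taken as a replicate block, where both same-numbered pairs must differ in 1 direction, the numbers were 207 higher and 514 lower in Trib1_LSKO and 465 higher and 313 lower in AAV_Cebpa. Shares over all sites were not counted under any of these settings, so the counts of higher and lower sites are not read as results about the weak sites. Whether same-numbered libraries belong together cannot be told from their numbers. Their deviations had r = 0.14 over the sites of the Trib1 lists and -0.016 over those of the AAV lists, which does not decide it. The share of weak sites with a constitutive neighbour was 1.79% within 1 kb, 87.3% within 100 kb and, within 10 kb, 21.8% at a threshold of 40. Chromosome X held 3.22% when lists had equal length, and its share was 4.42% to 5.2% when a library was left out. The difference in midpoint distance was 5.5 to 6.5 bp with 1 replicate pair left out. The comparison with sites below 50 in both replicates, the 2 recounts of chromosome X just given and the neighbours on autosomes alone (23.4%) were chosen after seeing the data. The cause of these changes was not tested. Depth limits single ranks, since a typical site had 16 to 41 tags in a library.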
